A study of Mus musculus with 24 samples.

Results

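Epithelium scraped from the duodenum of mice lacking caspase-1 (Casp1-null) was compared with epithelium scraped from their jejunum. The members were the 3 duodenal and 3 jejunal arrays that the sample titles assign to Casp1-null mice, 6 of the 24 arrays of the series. The groups used were Casp1-null duodenum, Casp1-null jejunum, Casp1-null ileum, wild-type duodenum, wild-type jejunum and wild-type ileum, with 3 arrays each. The Casp1-null line had been backcrossed to C57BL/6 for 10 generations, and the wild-type controls were C57BL/6J mice. All mice were males of 14 to 16 weeks on chow, fasted overnight, given 200 µL of olive oil into the stomach and killed 2 h later, so every group shared the oil load and no group without oil was available. The labels do not say whether the segments of 1 genotype came from the same mice, nor where one segment was cut from the next. Scraping leaves some cells of the mucosa below the epithelium in the sample.

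The duodenum is the first segment of the small intestine and receives acid from the stomach, bile, and pancreatic enzymes. Its enterocytes are specialised for taking up iron and calcium, while the jejunum beyond it takes up most of the sugar, amino acids and fat, and the ileum takes up bile acids and vitamin B12. The positions are held by transcription factors, among them Pdx1 at the duodenal end, Gata4 in duodenum and jejunum, and Cdx2 along the whole intestine.

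The promoter sequences of 2 genes high in duodenum and 2 genes high in jejunum are shown as examples from the 24 largest differences. They were picked with the values in view, and the pair high in duodenum is not typical of the largest rises in the motif marked. They are from RefSeq (GRCm38.p6), read 5′ to 3′ on the strand of the gene. Each runs from 250 bases before the transcript start to the base before it, and that of S100g runs 6 bases further. Capitals mark TTTATNG on either strand, a form of the site that CDX factors bind. Tmprss15 lies at chr16:79091098-79091347 on the minus strand, S100g at chrX:162964594-162964849 on the minus strand, Slc34a2 at chr5:53049103-53049352 on the plus strand, and Slc5a8 at chr10:88885742-88885991 on the plus strand.
Tmprss15: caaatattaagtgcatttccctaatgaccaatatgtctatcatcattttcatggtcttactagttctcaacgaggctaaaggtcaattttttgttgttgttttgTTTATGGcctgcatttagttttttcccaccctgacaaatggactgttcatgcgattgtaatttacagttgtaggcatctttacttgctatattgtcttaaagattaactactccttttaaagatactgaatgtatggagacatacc
S100g: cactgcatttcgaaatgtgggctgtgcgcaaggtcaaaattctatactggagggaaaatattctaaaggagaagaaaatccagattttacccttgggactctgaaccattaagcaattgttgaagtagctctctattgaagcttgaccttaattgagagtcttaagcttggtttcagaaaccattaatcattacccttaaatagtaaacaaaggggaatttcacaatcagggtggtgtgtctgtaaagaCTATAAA
Slc34a2: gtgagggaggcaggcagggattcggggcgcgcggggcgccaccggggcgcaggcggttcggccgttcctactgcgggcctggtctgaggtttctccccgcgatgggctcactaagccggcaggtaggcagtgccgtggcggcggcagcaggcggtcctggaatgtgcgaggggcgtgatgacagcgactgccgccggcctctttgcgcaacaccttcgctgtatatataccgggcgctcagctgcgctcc
Slc5a8: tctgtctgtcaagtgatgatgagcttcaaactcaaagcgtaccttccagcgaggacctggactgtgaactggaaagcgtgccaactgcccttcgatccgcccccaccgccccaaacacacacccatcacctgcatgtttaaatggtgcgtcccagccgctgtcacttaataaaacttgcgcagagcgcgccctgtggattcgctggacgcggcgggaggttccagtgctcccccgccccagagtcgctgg
The letters occurred once in Tmprss15, at positions -146 to -140 from the start, and once in S100g, where they span the start on the opposite strand. They were not in the windows of Slc34a2 and Slc5a8. In windows of 256 bases the letters occurred in 3 of the 9 largest rises with a promoter entry (Tmprss15, S100g and Meis2), not in the other 6 (Slc16a9, Sult6b2, Cybrd1, Pdx1, Otop3 and Akp3), and in 0 of the 8 largest falls with an entry. The S100g match ends 6 bases past the start, so it counts at 256 bases and not in the 250 bases used next. No share over all genes was taken at 256 bases. Within 250 bases before the start, TTTATNG occurred in 10.6% of 529 genes called higher in duodenum, in 7.24% of 359 called lower and in 11.3% of all 27025 genes with a promoter entry. A match describes the letters and is not evidence of binding.

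Levels are given on the log2 scale as the authors deposited them after RMA, which corrects background and puts all arrays on 1 distribution, so a difference of 1 is a change of 2-fold. Each of 18820 genes was represented by 1 probe set. Within Casp1-null duodenum the arrays correlated across probe sets with r of 0.9898 to 0.9909, within Casp1-null jejunum with 0.9876 to 0.9912, and between the segments with 0.9802 to 0.9849. A group mean under 4.874, the lowest median of the 18 intestinal arrays, was read as not shown above background, and a fold against such a group is given as a lower bound. No depth applies to arrays, and their number limits the precision. The smallest p that an exact permutation test allows with 3 arrays a side is 0.1, and all adjusted p-values below are from limma over all 35556 probe sets. They measure the spread between these samples, which the labels do not tie to separate animals.

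Casp1 itself (Gene ID 12362) did not differ between the segments of Casp1-null mice. It read 6.42, 6.42 and 6.53 in Casp1-null duodenum and 6.33, 6.52 and 5.82 in Casp1-null jejunum, a difference of 0.24 ± 0.226 (SE, adjusted p = 0.742) between overlapping groups. Wild-type arrays lay higher, at 8.36, 8.26 and 8.98 in duodenum and 9.13, 9.44 and 9.32 in jejunum, so all 12 arrays matched their genotype labels. The sources used here do not say whether its probes lie in the deleted stretch.

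Both segments read as enterocytes. The 10 enterocyte markers, among them Vil1, Sis, Lct, Apoa4 and Fabp2, lay between 11.57 and 13.56 in all 6 arrays, and 2 of them, Alpi and Anpep, were called between the segments. Some arrays stood apart in other markers. Casp1-null duodenum replicate 3 read 7.14 for Muc6 and 7.20 for Tff2, a mucin and a trefoil peptide of stomach and Brunner glands, against 3.38 and 3.66 (Muc6) and 4.37 and 4.04 (Tff2) in the other duodenal arrays. The mean of 17 Brunner gland markers ranged from 5.56 to 6.48 in Casp1-null duodenum and from 5.40 to 5.53 in Casp1-null jejunum, with 2 members called higher (Ctse and Slc4a4) and 1 called lower (Aqp1). In a scraping, more cells of a type and more RNA per cell cannot be told apart.

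In part of the called genes, 1 array of the lower group lay nearer the other segment. Of 634 genes higher in duodenum, Casp1-null jejunum replicate 1 was the highest jejunal array in 53.6%, and of 466 genes lower in duodenum, Casp1-null duodenum replicate 1 was the highest duodenal array in 50.4%. Among 9685 genes above background that were not called, the same arrays were highest in 34.3% and 35.4%. The duodenal arrays showed little such order in the genes higher in duodenum. Replicates 1, 2 and 3 were the highest duodenal array in 32%, 29.5% and 38.5% of those. Among the genes not called they were highest in 35.4%, 26.1% and 38.5%. Jejunum replicate 1 was the highest jejunal array in 23.2% of the genes lower in duodenum. The part of cutting position in these orders was not tested. For some of the genes whose call or size moved without jejunum replicate 1 or duodenum replicate 1, the result without that array is given.

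Of the 18820 genes, 1100 (5.84%) differed between Casp1-null duodenum and jejunum at an adjusted p under 0.05. The genes higher in duodenum numbered 634 (3.37%), of which 246 were at least 2-fold and 27 at least 8-fold higher. The genes lower in duodenum numbered 466 (2.48%), of which 167 were at least 2-fold and 19 at least 8-fold lower. The median difference over all genes was 0.004. The groups did not overlap in 23.7% of all genes and in 1095 of the 1100 called ones. The count was 712 without duodenum replicate 2. The genes lower in duodenum numbered 281 without that array and 291 without jejunum replicate 2. The count was 610 in a fit of the 6 arrays alone, of which 553 were among the 1100.

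Among the 12 largest rises toward the duodenum were genes of protein digestion, iron export and calcium transfer. Tmprss15, enteropeptidase of the brush border, which activates pancreatic trypsinogen, read 11.45, 11.46 and 11.22 in duodenum and 4.01, 3.94 and 3.89 in jejunum. It was at least 90.7-fold higher in duodenum (7.43 ± 0.399, SE; adjusted p = 5.67e-08), and its jejunal mean was not shown above background. Slc40a1, ferroportin, the iron exporter of the basolateral membrane, read 11.35, 11.54 and 11.90 in duodenum and 5.47, 4.77 and 5.41 in jejunum (6.38 ± 0.345, 83.4-fold; adjusted p = 5.67e-08). S100g, calbindin-D9k, which carries calcium through the cytosol, read 12.26, 12.62 and 12.58 in duodenum and 7.30, 6.05 and 5.91 in jejunum (6.06 ± 0.405; adjusted p = 4.19e-07). In all 3 genes the lowest duodenal array lay more than 4 log2 units above the highest jejunal one.

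Pdx1, the homeobox factor of pancreas and duodenum, was on in duodenum and not shown above background in jejunum. It read 9.73, 9.86 and 9.79 in duodenum and 4.27, 4.17 and 3.87 in jejunum, at least 30.3-fold higher (5.70 ± 0.22; adjusted p = 1.77e-09). Meis2, a homeobox factor of the TALE class, read 9.42, 9.99 and 9.88 in duodenum and 5.02, 4.28 and 4.82 in jejunum, at least 28.6-fold higher (adjusted p = 0.000417). Scarb1, the scavenger receptor SR-BI for high-density lipoprotein, read 9.95, 10.23 and 10.34 in duodenum and 5.0, 4.53 and 5.38 in jejunum (36.8-fold; adjusted p = 3.12e-06). None of these groups overlapped.

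The other large rises covered transport and secreted or surface enzymes. Slc16a9, a member of the monocarboxylate transporter family, was at least 73.0-fold higher (adjusted p = 6.15e-08), though a further probe set of that gene differed by only 0.11. Ctse, the aspartic protease cathepsin E, read 11.27, 11.82 and 12.34 in duodenum and 6.17, 5.51 and 5.57 in jejunum (66.7-fold). Otop3, a proton channel, read 11.18, 11.31 and 11.19 in duodenum and 6.75, 4.79 and 5.45 in jejunum (47.1-fold). The sulfotransferase gene Sult6b2 read 12.05 in every duodenal array and 6.91, 4.83 and 5.54 in jejunum (78.3-fold). Akp3, an intestinal alkaline phosphatase, read 13.26, 13.18 and 13.26 in duodenum and 9.50, 7.68 and 7.93 in jejunum (29.1-fold). Jejunum replicate 1 was the highest jejunal array for 10 of the 12 largest rises, Sult6b2, Otop3 and Akp3 among them. Without it their differences were 6.87, 6.10 and 5.43, against 6.29, 5.56 and 4.86 with it.

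Among the 12 largest falls toward the duodenum were 3 sodium-coupled transporters of phosphate or monocarboxylates. Slc34a2, the apical sodium-phosphate cotransporter NaPi-IIb, read 3.43, 4.74 and 3.35 in duodenum and 11.39, 11.36 and 10.70 in jejunum. It was at least 77.4-fold lower in duodenum, where it was not shown above background (-7.31 ± 0.387; adjusted p = 5.67e-08). Slc5a8, a sodium-coupled carrier of short-chain fatty acids and other monocarboxylates, read 5.10, 5.44 and 4.13 in duodenum and 11.63, 12.07 and 11.56 in jejunum (-6.87 ± 0.467; adjusted p = 4.91e-07). Its relative Slc5a12, also a monocarboxylate carrier, read 9.53, 6.63 and 5.23 in duodenum and 12.28, 12.46 and 12.45 in jejunum (-5.27 ± 0.841; adjusted p = 0.00156). Duodenum replicate 1 was the highest duodenal array for Slc5a12, and without it the difference was -6.47 (adjusted p = 7.07e-05).

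Enzymes, a hormone and a transcription factor made up most of the other large falls. Enpp7, the alkaline sphingomyelinase of the brush border, read 7.31, 6.30 and 4.64 in duodenum and 12.29, 12.44 and 11.69 in jejunum (66.5-fold lower; adjusted p = 0.000125). Osr2, a zinc-finger factor, read 4.43, 4.50 and 4.74 in duodenum and 8.97, 9.14 and 8.51 in jejunum, at least 16.0-fold lower (adjusted p = 5.6e-10). Nts, the gut hormone neurotensin, read 4.30, 4.11 and 3.90 in duodenum and 8.38, 8.60 and 7.97 in jejunum, at least 10.9-fold lower. P2ry4, a receptor for extracellular nucleotides, was at least 11-fold lower, and Nos2, inducible nitric oxide synthase, at least 11.4-fold lower. The serine protease gene Prss30 (21.0-fold) and the kinase gene Map3k6 (10.3-fold) were lower too. Duodenal and jejunal arrays of all 24 genes stood apart, as the rule for choosing them required.

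**Figure D1:**
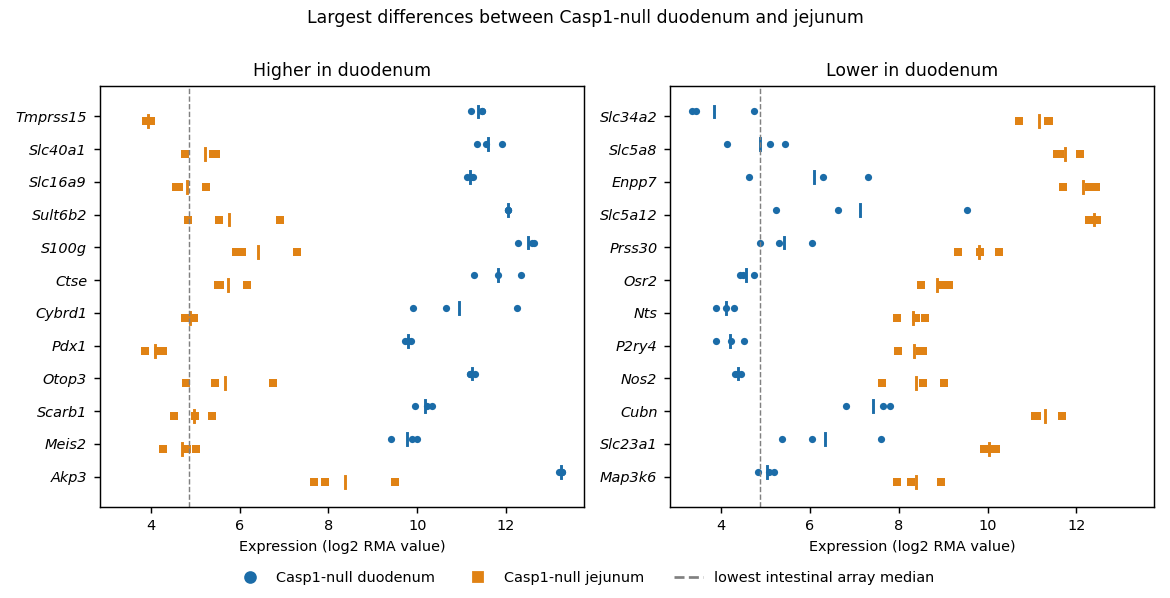
Expression (log2 RMA value, horizontal axis) of the 12 genes furthest above and the 12 furthest below in Casp1-null duodenum against Casp1-null jejunum. Points are arrays, short vertical bars are group means, and the dashed line is 4.874, the lowest intestinal array median. Slc5a12, Enpp7, Cybrd1 and Slc23a1 show the widest spread among duodenal arrays and Sult6b2, Otop3 and Akp3 among jejunal ones.

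Of 25 measured iron genes, 9 were higher in duodenum and 0 lower, against 3.37% higher and 2.48% lower among all genes. The median difference of the list was 0.22, against 0.004 over all genes. Cybrd1, the duodenal ferric reductase, read 9.90, 10.65 and 12.25 in duodenum and 4.90, 4.78 and 4.97 in jejunum (66.5-fold; adjusted p = 0.000417). Its highest array was duodenum replicate 3, the one with Muc6 and Tff2, and without that array the difference was 5.40 (adjusted p = 0.00299), against 6.05 with it. Slc11a2, the ferrous iron importer DMT1, read 9.60, 10.11 and 10.13 in duodenum and 8.17, 7.79 and 8.12 in jejunum (3.80-fold; adjusted p = 0.000184). Fth1, the ferritin heavy chain that stores iron, was 1.45-fold higher by the probe set used (adjusted p = 0.00117), and another probe set differed by 1.32 on the log2 scale.

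The other higher members were regulators of iron uptake and genes of haem or metal transport. Epas1, the hypoxia-inducible factor HIF-2α that drives iron uptake genes in enterocytes, read 10.38, 10.38 and 10.42 in duodenum and 8.89, 8.93 and 9.29 in jejunum (2.56-fold; adjusted p = 3.8e-05). Ireb2, the iron regulatory protein IRP2, was 2.28-fold higher (adjusted p = 0.000377). Slc46a1, the proton-coupled folate transporter first described as a haem carrier, read 12.51, 12.35 and 12.30 in duodenum and 9.83, 8.67 and 8.94 in jejunum (9.44-fold; adjusted p = 0.000204). Slc39a14, a carrier of zinc, iron and manganese, was 1.87-fold higher (adjusted p = 0.00351). Hmox1, haem oxygenase, read 8.49, 6.90 and 8.00 in duodenum and 5.65, 6.07 and 6.35 in jejunum (adjusted p = 0.0418). Of the 6 fits that each left out 1 array, only that without duodenum replicate 2 kept the Hmox1 call. The list held 8 or 9 higher members whichever array was left out.

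Of 23 genes of calcium, phosphate and magnesium absorption, 6 were higher in duodenum and 3 lower. Trpv6, the apical calcium channel, read 6.08, 6.67 and 9.04 in duodenum and 3.77, 3.76 and 4.10 in jejunum, at least 5.24-fold higher (3.39 ± 0.609; adjusted p = 0.00405). Its high array was again duodenum replicate 3, and without it the difference was 2.50 (adjusted p = 0.00789). In a fit of the 6 arrays alone the Trpv6 call was lost (adjusted p = 0.0702). Atp2b1, the calcium pump of the basolateral membrane, was 2.41-fold higher (adjusted p = 0.000172), and Vdr, the vitamin D receptor, 1.55-fold higher (adjusted p = 0.000542). With S100g, these cover the entry, transfer and exit of calcium across the cell and the receptor of its hormone.

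Cldn2, a claudin whose pores pass cations, read 8.26, 8.11 and 8.44 in duodenum and 6.64, 6.05 and 6.88 in jejunum (3.36-fold; adjusted p = 0.000665). Slc20a1, a phosphate carrier of another family than Slc34a2, was 2.03-fold higher (adjusted p = 0.023), a call lost without duodenum replicate 1 or 3 or jejunum replicate 1 or 2. Of the magnesium channels and carriers on the list, Trpm6 and Cnnm4 were lower in duodenum, and Trpm7 (-0.08), Cnnm2 (0.62) and Slc41a1 (-0.24) were not called. The apical channel Trpm6 read 4.57, 4.28 and 4.20 in duodenum and 5.44, 5.95 and 5.44 in jejunum, at least 1.67-fold lower, and the exporter Cnnm4 was 1.58-fold lower (adjusted p = 0.00413).

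Vitamin and trace metal carriers ran both ways, with 3 of 20 members higher in duodenum and 5 lower. The vitamin C carriers ran in opposite directions: Slc23a2 read 11.03, 11.01 and 11.37 in duodenum and 8.69, 8.29 and 8.69 in jejunum (5.99-fold higher; adjusted p = 1.37e-06), while Slc23a1 read 7.60, 6.06 and 5.38 in duodenum and 10.03, 10.18 and 9.91 in jejunum (13.0-fold lower; adjusted p = 0.000545). Slc19a1, the reduced folate carrier, was 4.61-fold higher (adjusted p = 8.93e-07), and Slc30a10, which exports manganese, was 4.43-fold higher (adjusted p = 3.12e-05). Cubn and Amn, the subunits of the receptor for vitamin B12 bound to intrinsic factor, were both lower. Cubn read 7.80, 6.81 and 7.64 in duodenum and 11.12, 11.67 and 11.07 in jejunum (14.6-fold; adjusted p = 5.12e-05), and Amn was 2.75-fold lower (adjusted p = 0.000598). Slc52a3, the apical riboflavin carrier, was 2.62-fold lower (adjusted p = 0.000884), and the zinc exporter Slc30a1 2.21-fold lower (adjusted p = 0.00944), and the Slc30a1 call was lost without duodenum replicate 2.

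Of 23 brush border hydrolases, 7 were lower in duodenum, 3 were higher (Tmprss15, Akp3 and Alpi) and 13 were not called. Xpnpep2, an aminopeptidase that cuts before proline, read 8.94, 8.68 and 7.99 in duodenum and 11.17, 11.89 and 11.50 in jejunum (7.92-fold lower; adjusted p = 3.73e-06). The peptidase gene Naaladl1 was 4.65-fold lower (adjusted p = 8.31e-05), and Mep1a, the meprin alpha subunit, 3.55-fold lower (adjusted p = 0.000123). Alpi, an alkaline phosphatase like Akp3, was 1.72-fold higher (adjusted p = 0.00582). The lower members numbered 4 without duodenum replicate 3, jejunum replicate 1 or jejunum replicate 2. Sucrase-isomaltase (Sis) and lactase (Lct) were not called, with differences of -0.24 ± 0.111 and -0.83 ± 0.396.

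Sugar transport differed in few members and amino acid transport in more: 10% and 28.6% were called, against 5.84% of all genes. Of 20 sugar transporters and fructose enzymes, 2 were lower and 0 higher, and 1 was lower without duodenum replicate 1 or 2 or jejunum replicate 3. Slc5a4b, a relative of the sodium-glucose transporters, read 7.51, 7.07 and 6.12 in duodenum and 10.58, 10.22 and 9.89 in jejunum (10.1-fold lower; adjusted p = 0.000244). Slc5a1, the sodium-glucose transporter SGLT1, differed by -0.16 ± 0.0894 (adjusted p = 0.457), and Slc2a5, the fructose carrier GLUT5, by 0.41 ± 0.28 (adjusted p = 0.587). Of 21 amino acid and peptide transporters, 5 were lower and 1 higher, with 2 lower without duodenum replicate 2 or 3 or jejunum replicate 2 or 3. Slc1a1, a glutamate and aspartate carrier, read 7.15, 6.95 and 7.14 in duodenum and 8.54, 9.13 and 8.83 in jejunum (3.36-fold lower; adjusted p = 0.000244). Slc6a20a, a carrier of proline, was 1.80-fold higher (adjusted p = 0.00448).

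Genes of chylomicron assembly, the process through which the oil load leaves the enterocyte, gave counts close to the background. Of 34 genes of triglyceride synthesis and chylomicron export, 2 were higher and 1 lower, with a median difference of -0.02. The higher members numbered 1 without any 1 duodenal array or jejunum replicate 2, and the lower ones 0 without any of those or jejunum replicate 3. Mttp, the microsomal triglyceride transfer protein, read 12.78, 12.75 and 12.70 in duodenum and 12.75, 12.67 and 12.75 in jejunum (0.02 ± 0.0996; adjusted p = 0.976). Apob, the structural protein of chylomicrons, differed by -0.10 ± 0.0967 and Dgat1, which makes triglyceride, by -0.03 ± 0.0971, neither called. Of 16 genes of fatty acid uptake and binding, 2 were higher, Slc27a2, a very long chain acyl-CoA synthetase (1.80-fold; adjusted p = 0.00429), and Got2 (1.73-fold; adjusted p = 0.00517), and Cd36 differed by -0.16 ± 0.956.

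Of 24 genes on the list of lipid droplet proteins, lipases and their regulators, 8 were higher in duodenum, 0 were lower and 16 were not called. Ces1g, a carboxylesterase that hydrolyses lipid esters, read 9.05, 9.31 and 8.96 in duodenum and 6.28, 5.80 and 5.50 in jejunum (9.49-fold; adjusted p = 3.44e-06). Its relatives Ces1f (4.10-fold; adjusted p = 2.82e-05), Ces1e (2.96-fold; adjusted p = 0.000164) and Ces2a (2.91-fold; adjusted p = 0.00276) were higher with it. Carboxylesterase genes are alike in sequence, and how far their probe sets share signal was not tested. G0s2, an inhibitor of adipose triglyceride lipase, read 7.92, 7.89 and 8.14 in duodenum and 6.09, 5.91 and 5.43 in jejunum (4.51-fold; adjusted p = 0.00202). Abhd5, the activator of the same lipase, was 1.89-fold higher (adjusted p = 0.000639).

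Sterol and bile acid genes ran both ways, 3 of 18 higher and 4 lower. Besides Scarb1, Nr0b2, the bile acid-induced repressor SHP, was higher, at 8.31, 8.57 and 8.00 in duodenum and 5.69, 4.57 and 5.12 in jejunum (8.98-fold; adjusted p = 1.13e-05). Abcc3, a basolateral exporter of bile acids and conjugates, was 2.98-fold higher (adjusted p = 0.000841). Slc10a2, the bile acid importer of the distal intestine, read 4.32, 4.32 and 3.88 in duodenum and 7.53, 8.89 and 6.04 in jejunum, at least 6.13-fold lower (adjusted p = 0.00313). Mylip, a ligase that degrades the LDL receptor, was 2.34-fold lower (adjusted p = 0.00382). Npc1l1, the importer of cholesterol, was 1.79-fold lower (adjusted p = 0.0121), a call lost without duodenum replicate 3 or jejunum replicate 2, and the lower members of the list then numbered 2. In cholesterol synthesis, 2 of 20 members were higher and 0 lower, although the median difference of the list was -0.41. Insig1, the sterol sensor that restrains that pathway, was 2.46-fold higher (adjusted p = 0.00026), and 1 member was higher without duodenum replicate 2 or jejunum replicate 2 or 3.

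Of 33 fatty acid oxidation and ketone body genes, 12 were higher in duodenum, 2 lower and 19 not called, with a median difference of 0.44. Oxct1, which lets cells burn ketone bodies, read 9.29, 9.63 and 9.26 in duodenum and 7.74, 7.83 and 7.67 in jejunum (3.13-fold; adjusted p = 8.09e-06). Pparg, a fatty acid-sensing nuclear receptor, was 2.71-fold higher (adjusted p = 0.000453). Cpt1a, the gate of mitochondrial fatty acid import, was 1.89-fold higher (adjusted p = 0.00169), Eci1 1.78-fold (adjusted p = 0.00445) and Decr1 1.61-fold (adjusted p = 0.00141). Vnn1, pantetheinase, was 2.04-fold lower (adjusted p = 0.00358). The higher members numbered 6 without duodenum replicate 3 and 6 without jejunum replicate 2, and the lower ones 1 without duodenum replicate 1 or 2 or jejunum replicate 2 or 3.

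Enzymes of conjugation, which make foreign compounds and hormones easier to excrete, had no lower member. Of 30 phase II conjugation enzymes, 15 were higher and 0 lower, with a median difference of 0.67, and 13 to 15 were higher whichever array was left out. Ephx1, microsomal epoxide hydrolase, read 10.42, 9.64 and 10.96 in duodenum and 6.14, 5.94 and 6.59 in jejunum (17.3-fold; adjusted p = 0.000104). Gsta4, a glutathione transferase that clears lipid aldehydes, read 11.75, 11.90 and 12.05 in duodenum and 8.86, 7.90 and 8.31 in jejunum (11.7-fold; adjusted p = 4.91e-07). The glucuronosyltransferases Ugt2b5 (7.94-fold; adjusted p = 3.83e-05) and Ugt2b35 (4.43-fold; adjusted p = 4.59e-05) were higher. Nqo1, a quinone reductase, was 3.46-fold higher (adjusted p = 2.94e-05), and Papss2, which makes the sulfate donor, 2.67-fold (adjusted p = 5.64e-06). Gstm3 and Gstm1, glutathione transferases of the mu class, were both higher, Gstm3 by 2.91-fold (adjusted p = 0.000811) and Gstm1 by 3.07-fold (adjusted p = 0.0135). The Gstm1 call was lost without duodenum replicate 1 or 3 or jejunum replicate 2, and shared signal between these near-identical genes was not tested.

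Of 42 cytochromes P450 and phase I enzymes, 11 were higher and 2 lower. Cyp2c66 read 11.90, 11.67 and 12.54 in duodenum and 9.06, 9.25 and 9.82 in jejunum (6.33-fold; adjusted p = 8.2e-05), and Cyp2c65 was 2.42-fold higher (adjusted p = 0.00337). Cyp4f15, of a family that hydroxylates fatty acids, was 4.12-fold higher (adjusted p = 3.25e-05), and the aldo-keto reductase Akr1c19 5.95-fold (adjusted p = 5.63e-05). The higher members of the list numbered 6 without duodenum replicate 1, 7 without duodenum replicate 3 and 6 without jejunum replicate 3. Its lower members numbered 1 without duodenum replicate 2 and 0 without any other array but jejunum replicate 3. Of 29 retinoid genes, 6 were higher and 2 lower, and 3 were higher without any array other than jejunum replicate 1, and 1 was lower without any array other than jejunum replicate 2. Adh6a, an alcohol dehydrogenase, was 5.05-fold higher (adjusted p = 0.000976), Aldh1a7 3.53-fold higher (adjusted p = 0.000611) and Dhrs9, a retinol dehydrogenase, 3.45-fold lower (adjusted p = 9.92e-05).

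Ion and water transport included the secretion of bicarbonate, with which the duodenum meets gastric acid: 7 of 29 members were higher and 4 lower. Car9, a membrane carbonic anhydrase, read 10.43, 10.55 and 10.52 in duodenum and 7.77, 7.42 and 7.78 in jejunum (7.18-fold; adjusted p = 1.18e-07). Car2, the cytosolic anhydrase, read 10.21, 10.84 and 10.53 in duodenum and 8.13, 6.78 and 7.01 in jejunum (9.32-fold; adjusted p = 2.65e-05). Cftr, the chloride and bicarbonate channel, was 2.37-fold higher (adjusted p = 0.00299), and the glycerol channel Aqp3 2.91-fold (adjusted p = 0.000128). Aqp1, a water channel, read 9.30, 7.48 and 8.32 in duodenum and 10.99, 11.11 and 11.30 in jejunum (6.81-fold lower; adjusted p = 0.00106). Guca2a, guanylin, a peptide that drives fluid secretion, was 5.75-fold lower (adjusted p = 3.83e-05). Car12 was at least 1.67-fold lower (adjusted p = 0.00393).

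The promoter of Car9 is shown because the gene is a textbook target of hypoxia-inducible factors and Epas1 was called with it. From RefSeq (GRCm38.p6), chr4:43506966-43507025, plus strand, these are the 60 bases before the start, with capitals for ACGTG on either strand, the core of the site that those factors bind.
Car9: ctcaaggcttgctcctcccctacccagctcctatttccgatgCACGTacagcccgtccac
The letters lay at positions -18 to -14 from the start, on the opposite strand. ACGTG occurred within 250 bases before the start in 24.2% of genes called higher in duodenum, in 23.4% of those called lower and in 18.5% of all genes with a promoter entry, and nothing about binding follows from it.

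**Figure D2:**
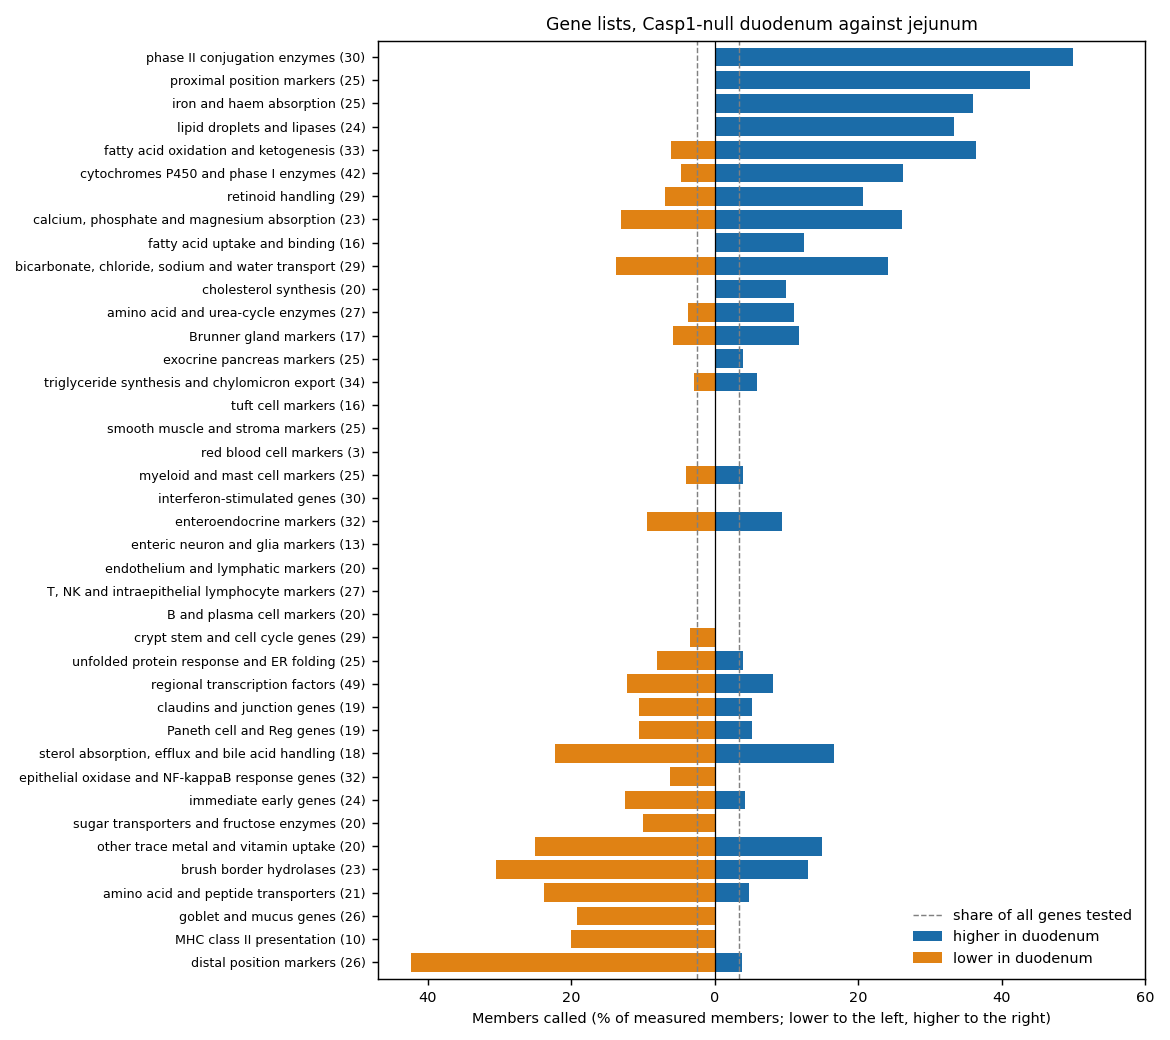
Share of the measured members of each of 40 gene lists called higher (right, percent) or lower (left, percent) in Casp1-null duodenum than in Casp1-null jejunum, with the number of measured members in brackets. Dashed lines mark the shares among all genes, 3.37% higher and 2.48% lower. Among the lists with higher members only are phase II enzymes, iron genes, and lipid droplet and lipase genes, and markers of lymphocytes, stroma and endothelium have none called.

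Transcription factors of regional identity were called in 10 of 49 cases, 4 higher and 6 lower. Beside Pdx1 and Meis2, Onecut2, a factor of duodenum and liver, read 9.87, 10.02 and 9.88 in duodenum and 8.39, 6.82 and 7.46 in jejunum (5.16-fold higher; adjusted p = 0.000113). Bach1, a repressor that senses haem, was 2.24-fold lower (adjusted p = 0.00538), and Maf 1.5-fold lower (adjusted p = 0.0046). Cdx2, the intestinal master factor, read 8.12, 7.97 and 8.27 in duodenum and 8.62, 8.84 and 8.70 in jejunum (1.51-fold lower; adjusted p = 0.012), a call lost without duodenum replicate 2 or jejunum replicate 2. Gata4 was not called (0.54 ± 0.263; adjusted p = 0.364). The lower members numbered 3 without duodenum replicate 2 or jejunum replicate 2, and 7 without duodenum replicate 3. The lists of proximal and distal position markers were written with knowledge of such differences: 11 of 25 proximal markers were higher and 0 lower, and 11 of 26 distal markers were lower and 1 higher.

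Hormone genes ran both ways, 3 of 32 enteroendocrine markers higher and 3 lower. The higher members numbered 1 without duodenum replicate 1 or 3 and 0 without duodenum replicate 2 or jejunum replicate 2. Gcg, the source of GLP-1, read 6.92, 6.31 and 6.20 in duodenum and 8.44, 8.34 and 8.62 in jejunum (3.97-fold lower; adjusted p = 5.05e-05), as Nts was lower. Pcsk1, the convertase that processes these hormones, was 2.64-fold lower (adjusted p = 0.000853). Cck, cholecystokinin, read 8.53, 8.36 and 7.93 in duodenum and 7.71, 6.67 and 6.78 in jejunum (2.33-fold higher; adjusted p = 0.0152). Its call held only without jejunum replicate 1 or duodenum replicate 3 among the fits that left out 1 array.

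Goblet and Paneth cell genes were lower where they were called, Reg1 apart, but most were not called. Among all genes 2.48% were lower and 3.37% higher. Of 26 goblet and mucus genes, 5 were lower and 0 higher, among them Guca2a above and Bcas1 (1.51-fold; adjusted p = 0.0194), whose call held only without duodenum replicate 1 among the fits that left out 1 array. The Muc2 call (-0.39; adjusted p = 0.0461) was lost whichever array was left out. The count of lower goblet and mucus genes was 2 without duodenum replicate 2 or 3 or without jejunum replicate 1 or 2, and 3 without jejunum replicate 3. Of 19 Paneth cell and Reg genes, 2 were lower, 1 was higher and 16 were not called. Itln1, intelectin of Paneth cells, read 5.68, 5.34 and 7.22 in duodenum and 8.38, 8.44 and 9.50 in jejunum (6.47-fold lower; adjusted p = 0.00729), and its other probe set differed by -1.33 on the log2 scale. Mmp7, which activates Paneth cell defensins, read 5.87, 5.16 and 6.81 in duodenum and 7.95, 7.46 and 8.81 in jejunum (adjusted p = 0.0183). Its call was lost without duodenum replicate 1 or 2 or jejunum replicate 3. Replicate 3 was the highest array for both genes in both segments. Reg1, a lectin-like peptide also made by pancreas, read 13.13, 13.15 and 13.00 in duodenum and 10.50, 8.40 and 8.85 in jejunum (14.3-fold higher; adjusted p = 0.000415). The mean of 25 exocrine pancreas markers was 5.71 to 5.83 in Casp1-null duodenum and 5.57 to 5.70 in Casp1-null jejunum, with Reg1 the only member called. That mean ran from 5.76 to 9.22 in wild-type duodenum, and the fit pools the spread of each gene over those arrays too. The lack of other calls therefore cannot show whether the remaining markers differed.

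Lists of immunity and stress genes differed in their share called, against 5.84% of all genes. The share was 0% for interferon-stimulated, 6.25% for oxidase and NF-κB, 16.7% for immediate early and 20% for MHC class II genes. Of 32 epithelial oxidase and NF-κB response genes, 2 were lower: Nos2, at 4.32, 4.45 and 4.36 in duodenum and 7.62, 8.54 and 9.01 in jejunum, and Casp4 (2.19-fold; adjusted p = 0.0296), whose call was lost without duodenum replicate 1 or 3 or jejunum replicate 1 or 2. Of 30 interferon-stimulated genes, 0 were called by limma and 5 had an unadjusted p under 0.05, against 3351 of all 18820 genes. Of 10 MHC class II genes, 2 were called lower, Cd74 and H2-DMa, and 5 were lower without duodenum replicate 2, but 0 without any other single array. Duodenum replicate 2 was the high array, with 11.74 for Cd74 against 10.59 and 10.42 in the other duodenal arrays. Among immediate early genes 1 of 24 was higher and 3 lower. Atf3, a stress-induced factor, read 7.77, 7.80 and 7.31 in duodenum and 9.47, 10.26 and 10.68 in jejunum (5.69-fold lower; adjusted p = 0.00173), and Jun was 1.88-fold higher (adjusted p = 0.00277). Axin2, a readout of Wnt signalling, was 2.34-fold lower (adjusted p = 0.00299), the only call among 29 crypt and cell cycle genes, of which 2 were lower without duodenum replicate 3.

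Of 19 claudins and junction genes, 1 was higher and 2 were lower, Cldn7 (1.44-fold; adjusted p = 0.00938) and Ocln, occludin (1.39-fold; adjusted p = 0.0174), with 1 lower without duodenum replicate 1 or 3 or jejunum replicate 1 or 2. Of 25 genes of the unfolded protein response, 1 was higher and 2 were lower, and 0 were higher without any array other than jejunum replicate 1, while 0 were lower without duodenum replicate 2 or jejunum replicate 3 and 1 without any other. Of 27 amino acid and urea-cycle enzymes, 3 were higher and 1 was lower. The higher ones numbered 2 whichever array was left out, and the lower ones 2 without jejunum replicate 1. The lower one was Oat, ornithine aminotransferase, at 10.42, 10.20 and 10.60 in duodenum and 11.63, 11.44 and 11.46 in jejunum (2.15-fold; adjusted p = 0.000665).

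Markers of other cell types gave few calls between the segments. Among all genes 5.84% were called, and lists of this size would hold few calls at that share. Many members lay near background. Only 2 of 13 neuronal and glial, 8 of 20 endothelial and 1 of 3 red blood cell markers were above background in either segment. By limma, 0 of 27 T and NK cell, 0 of 20 B and plasma cell, 0 of 25 smooth muscle and stroma, 0 of 20 endothelial, 0 of 13 neuronal and glial, 0 of 16 tuft cell and 0 of 3 red blood cell markers were called. At an unadjusted p under 0.05 there were 3 B and plasma cell, 1 endothelial and 3 tuft cell markers and 0 of the other 4 lists. Among all 18820 genes there were 3351. The mean of the stroma markers was 5.09 to 5.46 in Casp1-null duodenum and 4.68 to 5.84 in Casp1-null jejunum. It ran from 4.65 to 8.23 in Casp1-null ileum and from 4.71 to 8.38 in wild-type ileum. The neuronal and glial mean ran from 4.26 to 5.33 in wild-type ileum, and the endothelial mean from 4.29 to 5.34 in Casp1-null ileum. The fit pools the spread of each gene over the ileal arrays too, which makes calls in these lists hard to reach. Their lack of calls cannot show whether the segments differed. The mean of the T and NK cell markers was 7.10 to 7.55 in Casp1-null duodenum and 6.96 to 7.44 in Casp1-null jejunum. Of 25 myeloid and mast cell markers, Prg2 was called higher with both groups not shown above background, and Itgam lower (1.55-fold lower; adjusted p = 0.0236), a call lost without duodenum replicate 2 or 3 or jejunum replicate 2 or 3.

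The ileum of the same genotype places these genes along the intestine. Its values are set beside those of duodenum and jejunum as levels only, since a comparison with jejunum would use the same jejunal arrays. Over all 634 genes called higher in duodenum, the ileal mean lay below both other segments in 342, between them in 270 and above both in 22. For the 12 largest rises it lay between the duodenal and the jejunal means in each. Slc40a1 averaged 11.60 in duodenum, 5.22 in jejunum and 7.60 in ileum, and S100g 12.49, 6.42 and 8.87. Tmprss15 averaged 11.38 in duodenum and 3.95 in jejunum, and its Casp1-null ileal arrays read 6.59, 4.87 and 7.10, against 4.13, 3.47 and 4.39 in wild-type ileum. Cybrd1 read 5.72, 6.65 and 9.56 in Casp1-null ileum, against 4.59, 5.54 and 4.92 in wild-type ileum. The Casp1-null ileal arrays thus overlapped none of the wild-type ones in either gene. The share of all genes that separate in this way between the ileal groups was not taken. Both genes were picked with their values in view, and neither the difference nor its cause was tested.

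Over all 466 genes called lower in duodenum, the ileal mean lay above both other segments in 219, between them in 195 and below both in 52. Of the 12 largest falls, 7 were highest in ileum, 4 lay between, and Slc23a1 was lowest there. Slc34a2 averaged 3.84 in duodenum, 11.15 in jejunum and 12.14 in ileum, and Slc5a8 4.89, 11.76 and 12.31, so these separated the duodenum from the rest. Slc10a2 averaged 4.17, 7.49 and 11.68 along the same order. Enpp7 averaged 6.08 in duodenum, 12.14 in jejunum and 7.73 in ileum, Slc23a1 6.35, 10.04 and 4.62, and Slc5a4b 6.90, 10.23 and 6.45, with the jejunum the highest segment of each.

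**Figure D3:**
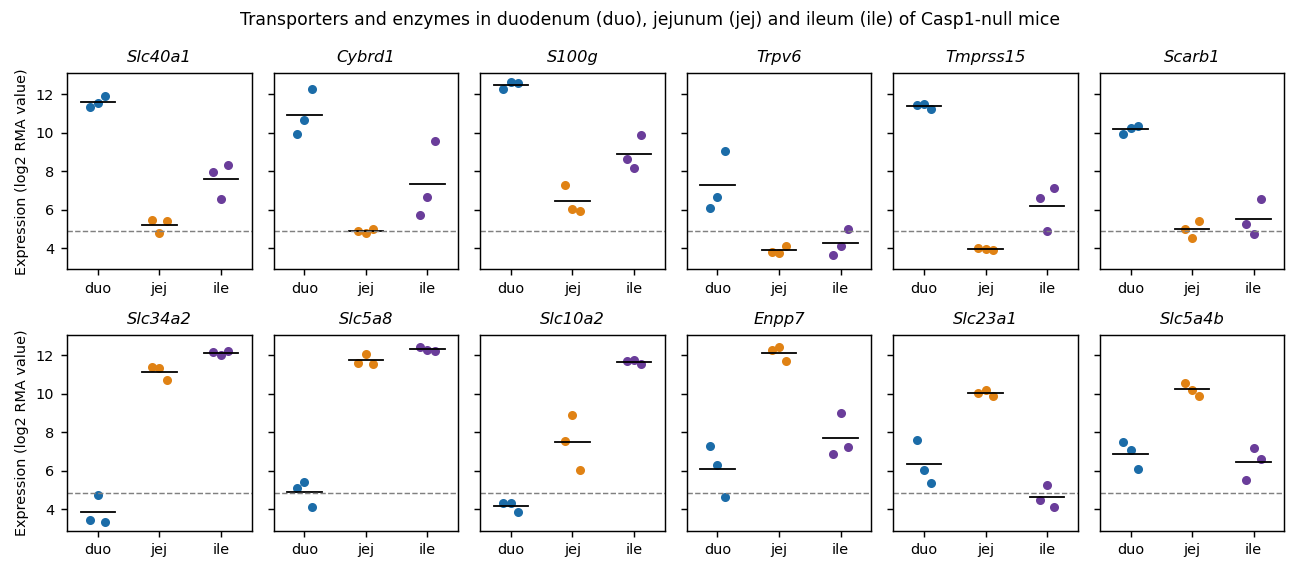
Expression (log2 RMA value, vertical axis) of 12 transporters and enzymes in duodenum, jejunum and ileum of Casp1-null mice. Points are arrays, black bars are means of 3 arrays and the dashed line is 4.874, the lowest intestinal array median. Slc40a1, Cybrd1, S100g, Trpv6, Tmprss15 and Scarb1 are highest in duodenum, Slc34a2 and Slc5a8 are low in duodenum alone, and Enpp7, Slc23a1 and Slc5a4b peak in jejunum.

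The same comparison in wild-type mice shares no array with that in Casp1-null mice, so the axis could be compared between genotypes. The wild-type duodenal arrays were less alike in exocrine pancreas markers, whose mean spanned 5.76 to 9.22, against 5.71 to 5.83 in Casp1-null duodenum. The median difference of those 25 markers reached 1.32 for the wild-type comparison, against 0.07 for the other. The counts, correlation and genotype term below include these arrays, and the part of pancreatic RNA in them was not tested. In wild type 1460 genes (7.76%) were called, 825 higher (4.38%) and 635 lower (3.37%) in duodenum. The wild-type count was 880 without duodenum replicate 1, 905 without duodenum replicate 2 and 893 without jejunum replicate 3, with 306, 362 and 328 genes lower in duodenum. Called in both genotypes in the same direction were 730 genes, 66.4% of the Casp1-null calls and 50% of the wild-type calls, and 0 were called in opposite directions. Of the 1100 Casp1-null calls, 98.4% had the same sign in wild type, against 67% of all genes. Across the 18820 genes, which are not independent replicates, the differences correlated with r = 0.81. Tmprss15 differed by 7.43 in Casp1-null and 7.61 in wild-type mice, Pdx1 by 5.70 and 5.99, Slc34a2 by -7.31 and -7.42, and Scarb1 by 5.20 in both.

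**Figure D4:**
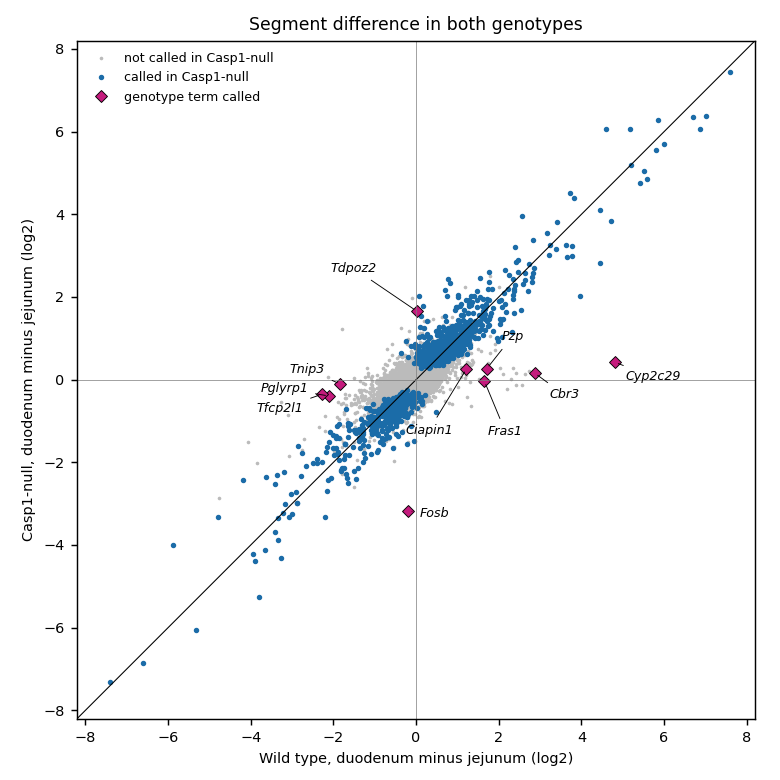
Difference between duodenum and jejunum (log2) in Casp1-null mice (vertical axis) against that in wild-type mice (horizontal axis) for 18820 genes, with the line of equal differences. Blue points are the 1100 genes called in Casp1-null mice, and diamonds are the 10 genes whose difference differed with genotype. Most blue points lie along the line, and Fosb and Cyp2c29 lie far from it.

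Whether the axis differed with genotype was tested by the difference between the 2 segment differences, Casp1-null minus wild type. An unadjusted p under 0.05 for this term held in 898 of 18820 genes, no more than that threshold gives on average where nothing differs. The term was called in 10 genes (0.0531%). The count was 6 without Casp1-null duodenum replicate 1 or 3, Casp1-null jejunum replicate 2 or wild-type jejunum replicate 1, and 5 without wild-type jejunum replicate 2. Genotype and strain background cannot be told apart here. Fosb, an immediate early transcription factor, was 1 of the genes above background in Casp1-null mice. It read 4.82, 5.11 and 4.77 in Casp1-null duodenum and 7.66, 8.64 and 7.96 in Casp1-null jejunum, against 5.14, 5.27 and 5.44 in wild-type duodenum and 5.79, 5.22 and 5.40 in wild-type jejunum. Casp1-null jejunum stood above the other 3 groups, the term was -3.0 ± 0.416 (adjusted p = 0.0149), and it was called in 7 of 12 fits that each left out 1 array. The Fosb call was lost without Casp1-null duodenum replicate 1 or 3, wild-type duodenum replicate 3 or wild-type jejunum replicate 2 or 3.

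In other genes the wild-type difference was the wider one. Pglyrp1, a peptidoglycan-binding antibacterial protein, read 8.41, 8.50 and 8.63 in Casp1-null duodenum and 8.65, 8.89 and 9.18 in Casp1-null jejunum. In wild type it read 8.16, 8.45 and 8.74 in duodenum and 10.57, 10.70 and 10.41 in jejunum, so wild-type jejunum alone was high (term 1.71 ± 0.212; adjusted p = 0.00584). Tfcp2l1, a grainyhead-like transcription factor, averaged 6.54 in Casp1-null duodenum, 6.89 in Casp1-null jejunum, 7.74 in wild-type duodenum and 10.02 in wild-type jejunum (term 1.93; adjusted p = 0.0209), and its term was called in 4 of 12 such fits. Ciapin1, a factor of iron-sulfur cluster assembly, averaged 9.60 in Casp1-null duodenum and 9.34 in Casp1-null jejunum, against 9.95 in wild-type duodenum and 8.74 in wild-type jejunum (term -0.96 ± 0.12; adjusted p = 0.00584).

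Cbr3, a carbonyl reductase, was above background in wild-type duodenum only, at 7.30, 6.62 and 6.54, and averaged 4.13 in Casp1-null duodenum and 3.98 in Casp1-null jejunum (term -2.72 ± 0.297; adjusted p = 0.00263). Cyp2c29, a cytochrome P450, averaged 3.99 in Casp1-null duodenum and 3.57 in Casp1-null jejunum, against 9.46 in wild-type duodenum and 4.65 in wild-type jejunum. Its wild-type duodenal arrays spread from 7.93 to 10.83, and its term of -4.39 ± 0.664 (adjusted p = 0.0262) was called in 2 of 12 fits that left out 1 array. No iron, calcium, chylomicron or phase II list held a gene with a called term. Only 0.0531% of all genes had one, so lists of this size would rarely hold any. The cholesterol synthesis list had a median difference of -0.41 in Casp1-null and 0.18 in wild-type mice. For the term, 0 members were called by limma and 2 of 20 had an unadjusted p under 0.05, against 898 of all 18820 genes.

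**Figure D5:**
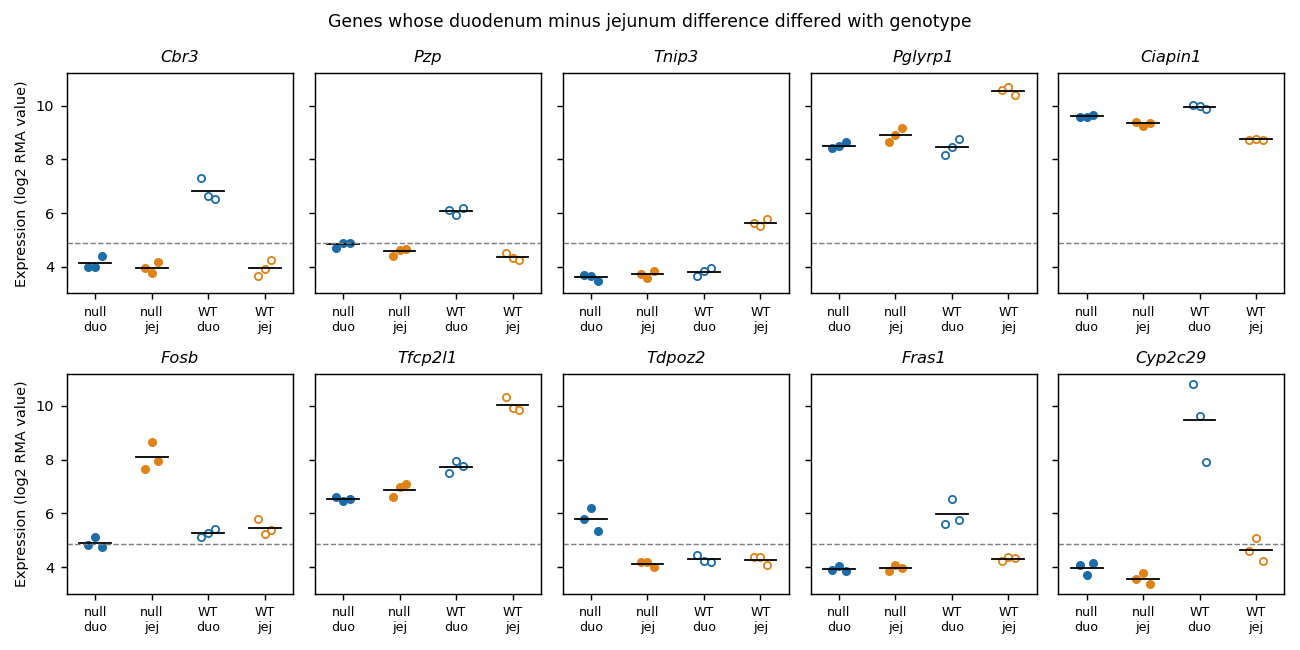
Expression (log2 RMA value, vertical axis) of the 10 genes whose duodenum minus jejunum difference differed with genotype, in Casp1-null (filled points) and wild-type (open points) duodenum and jejunum. Points are arrays, black bars are means of 3 arrays and the dashed line is 4.874. Fosb is high in Casp1-null jejunum alone, Tdpoz2 in Casp1-null duodenum alone, and Cbr3, Pzp, Fras1 and Cyp2c29 in wild-type duodenum.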

How the data were processed

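Arrays of scraped intestinal epithelium from Casp1-null and wild-type mice were analysed, 3 per segment and genotype, grouped by their titles. The deposited values are log2 expression values per probe set, normalized by the authors with RMA per the submitters' processing notes. The version, probe annotation and genome build are not given in the sources used here. Of 35556 probe sets, 21218 carried 1 gene symbol, 1881 several and 12457 none. Of the IDs with 1 symbol, 21185 matched RefSeq and 33 did not. A gene was represented by its probe set with the highest mean over the 18 intestinal arrays.

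A model with 6 groups was fitted to the 18 arrays with limma 3.58.1 in R 4.3.3 (12 residual degrees of freedom, Benjamini-Hochberg adjustment over all probe sets), and genes were called at an adjusted p under 0.05. The fit was tested on simulated data. Named were Casp1, the 12 largest called differences each way with groups that do not overlap and a higher group above background, up to 6 called members of each of 40 gene lists by p, and the 12 genes with the smallest interaction p. Further list members were named after their values were seen. The members and lists were chosen with earlier results of these data known.

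Deviations of same-numbered duodenal and jejunal arrays correlated at 0.049, 0.029 and 0.13 in Casp1-null and -0.007, -0.098 and -0.093 in wild-type mice. Correlations over 3 arrays a group cannot show whether the segments shared mice, and the main fit did not pair them. Alternatives were other sets of arrays, a variance trend, a filter on low values, 2 other normalizations, array weights, another choice of probe set, the replicate block and leaving out each array. Promoters are from RefSeq (GRCm38.p6), with entries for 17 of the 24 genes with the largest differences. Liver arrays were not used here.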

Additional observations from a re-analysis of the deposited data

Results flagged for a closer look

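The difference between duodenum and jejunum differed with genotype, by limma's test of that difference, in 10 genes. The term is the Casp1-null difference minus the wild-type difference on the log2 scale. It was 1.72 for Tnip3, 1.71 for Pglyrp1, 1.93 for Tfcp2l1 and 1.63 for Tdpoz2. It was -2.72 for Cbr3, -1.45 for Pzp, -0.96 for Ciapin1, -3.0 for Fosb, -1.69 for Fras1 and -4.39 for Cyp2c29. Cbr3, Pzp, Tnip3, Fras1 and Cyp2c29 were not shown above background in either Casp1-null segment, so their terms rest on the wild-type arrays. Cbr3, Pzp, Tnip3, Pglyrp1 and Ciapin1 were called whichever of the 12 arrays was left out. The calls of Pglyrp1 without the ileal arrays (adjusted p = 0.0557) and of Ciapin1 with the replicate block (adjusted p = 0.0518) were lost.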

How the results depend on the processing

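In Casp1-null mice the count of 1100 genes was 610 in a fit of the 6 arrays alone (339 higher, 271 lower) and 971 to 1349 in the other fits of all arrays. Leaving out 1 array gave 712 to 958 genes, 431 to 583 higher and 281 to 375 lower. In wild type leaving out 1 array gave 880 to 1167 genes, 543 to 632 higher and 306 to 535 lower, and array weights gave 988 lower. The count of genes whose difference differed with genotype was 5 to 11 when 1 array was left out, 2 to 5 with a positive term and 3 to 6 with a negative term. The replicate block rests on a pairing that the labels do not give. With it the counts were 998 in Casp1-null mice, 1444 in wild type and 9 for the difference between genotypes. The 24 genes with the largest differences were called in every fit. Of 129 called genes that the naming rule covers, 101 were called in each fit that left out 1 array, 89 were called in every fit and 0 changed sign. The median difference of all probe sets stayed between -0.012 and 0.017. With 3 arrays a group, small differences and genes near background are the least certain. Why counts moved was not tested.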

Other observations

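Of the 12457 probe sets that carry no gene symbol here, 167 (1.34%) were called between Casp1-null duodenum and jejunum. They are not named and enter none of the counts above.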
